A study of Gallus gallus with 6 samples.

Results

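The transcripts described are the 7 mRNAs of mitochondrial DNA that encode subunits of respiratory complex I (NADH dehydrogenase): ND1, ND2, ND3, ND4L, ND4, ND5 and ND6. They were taken by their target identifiers, 7 of 25752 targets, and all 7 passed the filter on low counts. Each annotated target is called an mRNA or transcript here, although overlapping ones, such as ND4L and ND4, need not be separate molecules. RNA sequencing had been carried out on 6 otocysts, the vesicles that become the inner ear, dissected at embryonic day 2.5 from 3 White Leghorn chicken embryos. For 24 h the right otocyst of each embryo was exposed to IWR-1 at 300 µM, a small molecule that stabilises Axin and so blocks canonical Wnt signalling (n = 3), and the left one to the solvent DMSO (n = 3). Every embryo thus gave 1 library to each group, and body side and treatment cannot be told apart. Each otocyst was cleaned of mesenchyme and cultured and processed singly, and no genetic alteration is named for either group.

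Complex I is the entry point of the respiratory chain. It passes electrons from NADH to ubiquinone and pumps protons across the inner mitochondrial membrane. Its membrane arm has a core of subunits encoded by mitochondrial DNA, while the remaining subunits come from nuclear genes. In vertebrates most mitochondrial genes are transcribed from the same strand as long precursors that are cut into mRNAs, whereas ND6 lies on the opposite strand.

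The tables list identifiers without names. The first 13 targets of each table followed the order of the 13 protein-coding mitochondrial genes of the RefSeq chicken annotation (assembly GRCg7b), in which ND6 comes after CYTB. Lengths were identical for 10 of the 13 and differed by at most 3 bases for the other 3, namely ND2, COX1 and ND3. By this match ENSGALT00000080481.1 is ND1 (975 bases), ENSGALT00000082968.1 is ND2 (1041 bases), ENSGALT00000049217.1 is ND3 (351 bases) and ENSGALT00000079811.1 is ND4L (297 bases). Likewise ENSGALT00000063913.1 is ND4 (1378 bases), ENSGALT00000047001.1 is ND5 (1818 bases) and ENSGALT00000068151.1 is ND6 (522 bases). The other 6 mitochondrial mRNAs encode cytochrome c oxidase subunits (COX1, COX2, COX3), cytochrome b (CYTB) and ATP synthase subunits (ATP6, ATP8). No gene names could be given to the nuclear targets, so nuclear complex I subunits, Wnt target genes and otic marker genes were not examined.

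Libraries held 12974103 to 14967209 estimated counts with IWR-1 and 10060014 to 15217029 with DMSO. Fragments were shorter in 2 libraries, 1 per group: the mean was 191.9 bases for embryo 40 with IWR-1 and 182.4 bases for embryo 39 with DMSO, and 211.0 to 212.1 bases elsewhere. The DMSO library of embryo 39 also had the fewest targets above 0, 18960, against 19040 to 19969 in the others. Estimated counts per complex I transcript lay between 796 and 20170, for which the counting error alone is 3.54% to 0.704%. In 6 of the 7 the deposited estimates were whole numbers (to within 1e-06) in every library. Larger estimates are deposited to fewer decimals, so a small divided fraction of a read may not show in them. ND4 was the exception. The sum of its estimate and that of a single other target, of 196 bases and 624.7 to 1077 counts, was whole to within 0.06 of a read in all 6 libraries. That target may share reads with ND4, but it was found from these sums alone and may be a chance match.

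No complex I transcript passed the threshold between IWR-1 and DMSO otocysts, and their levels overlapped between the groups. None of the 7 reached 0.05 after Benjamini-Hochberg adjustment over 16524 transcripts (edgeR quasi-likelihood test), where 0.00605% of all transcripts passed. At an unadjusted p under 0.05 the count was again 0 of 7, where 7.24% of all transcripts passed. DESeq2 called 0 of 7, where it called 1.18% of all transcripts, and 0 of 7 at an unadjusted p under 0.05, where 8.54% passed. The TPM ranges of the groups overlapped for 7 of 7 members, and they did not overlap for 16.5% of all transcripts. The fitted log2 fold change was above 0 for 7 of 7, with a median of 0.11, against 49.4% of all transcripts tested and a median of -0.01. It was also above 0 for 5 of the other 6 mitochondrial mRNAs, with a median of 0.06. Without the DMSO otocyst of embryo 39, 4 of 7 were above 0, with a median of 0.02, and without both libraries of short fragments 3 of 7, with a median of -0.02. On log2(TPM + 1) the 7 values ran from 0.14 to 0.53 with a median of 0.25, where the median of all transcripts was 0.10. These signs are not separate evidence, because the transcripts come from the same 6 libraries and moved together in them. In whole otocysts, fewer cells of a type and less of the RNA per cell cannot be told apart.

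**Figure D1:**
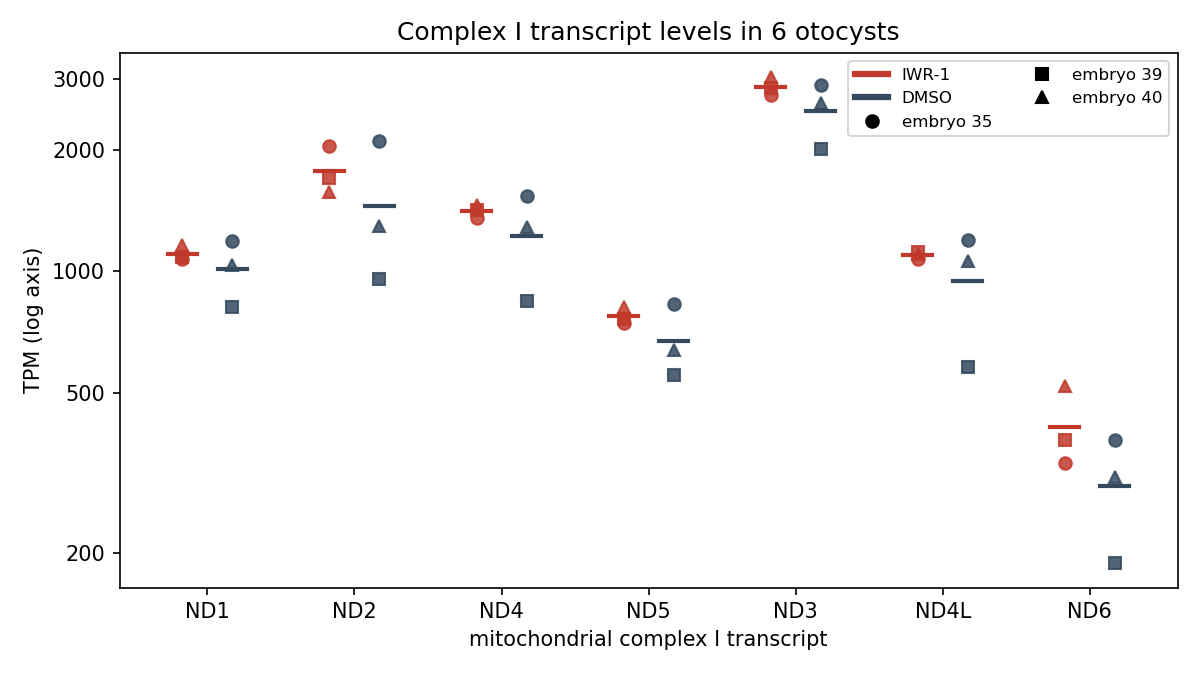
TPM (log axis) of each complex I transcript in 3 IWR-1 otocysts (red, left) and 3 DMSO otocysts (dark, right), with the embryo given by the symbol and the group mean by a bar. The DMSO otocyst of embryo 39 is the lowest of 6 for each transcript, and the ranges of the groups overlap throughout.

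ND1 encodes the subunit next to the site where ubiquinone is bound. It measured 1076, 1084 and 1163 TPM (a relative abundance per length and library total) in the IWR-1 otocysts of embryos 35, 39 and 40, against 1188, 814.9 and 1040 TPM in the DMSO otocysts of the same embryos. The IWR-1 values lay inside the range of the DMSO values. On the scale of the test the log2 fold change was 0.02 (SE 0.12, 95% interval -0.27 to 0.31; edgeR adjusted p = 0.979).

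ND2, ND4 and ND5 encode the large subunits that resemble antiporters and form proton channels of the membrane arm. ND2 measured 2051, 1706 and 1572 TPM with IWR-1 in embryos 35, 39 and 40, against 2104, 959.3 and 1295 TPM with DMSO. Embryo 35 was the highest of the 3 embryos on both sides, and the within-group spread of ND2 was the largest of the 7 members. Its log2 fold change was 0.19 (SE 0.25, 95% interval -0.38 to 0.77; edgeR adjusted p = 0.885). That fit does not pair the otocysts of an embryo. With the embryo as a block in the fit, the ND2 value was 0.24 (SE 0.16, 95% interval -0.17 to 0.65; edgeR adjusted p = 0.709). ND4 measured 1360, 1422 and 1459 TPM with IWR-1, against 1540, 842.7 and 1289 TPM with DMSO. The IWR-1 otocysts lay close together, while the DMSO otocysts of embryos 35 and 39 stood on either side of them. The log2 fold change of ND4 was 0.11 (SE 0.17; edgeR adjusted p = 0.913). It was -0.05 without the DMSO otocyst of embryo 39 and 0.29 without that of embryo 35, and 0.10 when the target that may share reads with it was added to it. ND5 measured 745.7, 763.6 and 815.3 TPM with IWR-1, against 828.4, 551.9 and 638.8 TPM with DMSO. Its groups overlapped through the DMSO otocyst of embryo 35, which was the highest of the 6 (log2 fold change 0.10, SE 0.14; edgeR adjusted p = 0.905).

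ND3, ND4L and ND6 encode small membrane subunits that lie between ND1 and the antiporter-like ones. ND3 measured 2744, 2852 and 3037 TPM with IWR-1 in embryos 35, 39 and 40, against 2906, 2011 and 2614 TPM with DMSO. It had the highest level of the 7 in each library, and differed by 0.08 in log2 between the groups (SE 0.12; edgeR adjusted p = 0.909). ND4L, whose reading frame overlaps the start of ND4, measured 1076, 1116 and 1107 TPM with IWR-1, against 1195, 578.9 and 1062 TPM with DMSO. Without the DMSO otocyst of embryo 39 the remaining 5 values ran from 1062 to 1195 TPM, and the fitted log2 difference of 0.12 (SE 0.20; edgeR adjusted p = 0.919) became -0.08. ND6, whose gene lies on the opposite strand, measured 333.5, 381.7 and 518.2 TPM with IWR-1, against 381.2, 188.2 and 307.5 TPM with DMSO. It was the lowest of the 7 in each library and had the largest fitted difference, 0.40 in log2 (SE 0.24, 95% interval -0.16 to 0.97; edgeR unadjusted p = 0.138, adjusted p = 0.762). Without both libraries of short fragments, a fit chosen after seeing the data, the ND6 value was 0.02. These libraries held the highest ND6 level, 518.2 TPM with IWR-1, and the lowest, 188.2 TPM with DMSO. Leaving them out therefore lowers the difference whatever its cause. With fragment length as a covariate in the fit of all 6 the value was 0.41. Each group held a library of short fragments, so this covariate was nearly balanced between the groups and could move the difference little. Neither fit decides whether fragment length bears on the ND6 value. The deposited estimates do not state which strand the reads on the ND6 target came from. The ND6 level and fitted difference are therefore those of reads on the target, and cannot be assigned to ND6 mRNA alone.

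**Figure D2:**
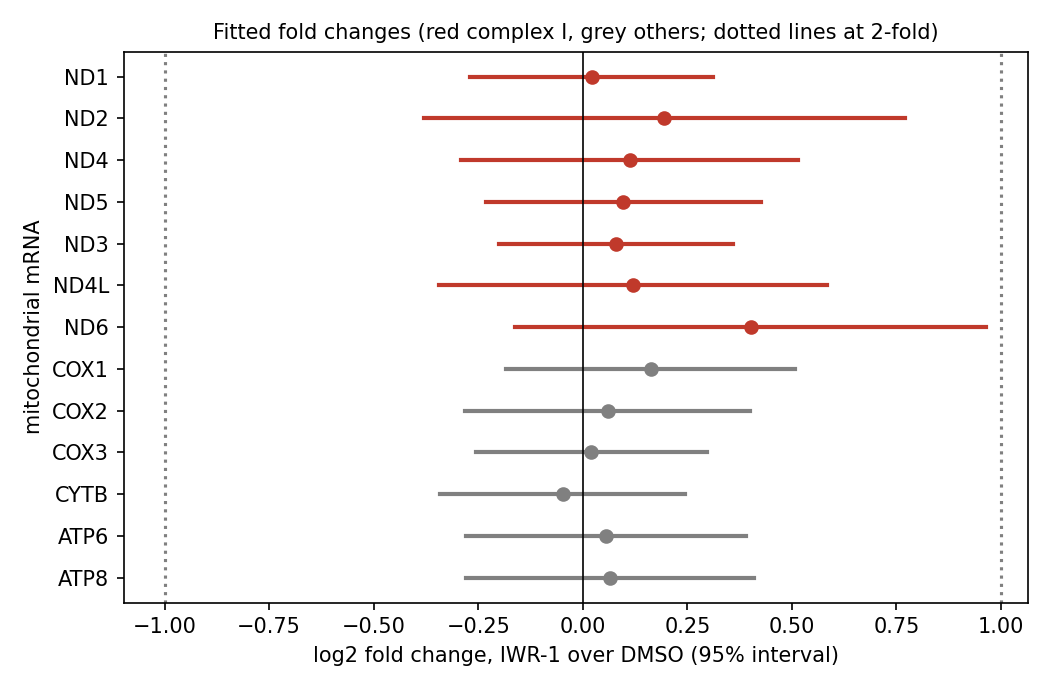
Fitted log2 fold change of IWR-1 over DMSO for the 7 complex I transcripts (red) and the other 6 mitochondrial mRNAs (grey), with 95% intervals from edgeR and dotted lines at a 2-fold change. All 13 intervals include 0, and the upper end for ND6, 0.97, comes closest to a dotted line.

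In fold terms the 95% intervals ran from 0.830 to 1.24 for ND1, 0.768 to 1.71 for ND2, 0.870 to 1.28 for ND3 and 0.787 to 1.50 for ND4L. They ran from 0.817 to 1.43 for ND4, 0.851 to 1.34 for ND5 and 0.893 to 1.95 for ND6. In this fit a change of 2-fold lay outside the interval of each transcript. For ND6 that limit did not hold in 8 of 22 alternative settings, in which its upper end passed 1 on the log2 scale and reached 1.22 without the DMSO otocyst of embryo 35.

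Within embryos the direction was shared by the transcripts and not by the embryos. In embryo 35, the right (IWR-1) otocyst had less than the left (DMSO) one for 7 of 7, by -0.25 to -0.09 on log2 CPM (counts scaled to the library size, with TMM factors). In embryo 39, the right otocyst had more for 7 of 7, by 0.15 to 0.71, and in embryo 40 for 7 of 7, by 0.02 to 0.75. The other 6 mitochondrial mRNAs did likewise, with 6 of 6 lower in the right otocyst of embryo 35 and 6 of 6 higher in those of embryos 39 and 40. Each of the 7 was thus higher with IWR-1 in 2 of 3 embryos, although ND4L in embryo 40 (0.02) lay within counting error. The same directions were found in TPM, in which the median of all transcripts was itself shifted by 0.23 in embryo 39, 0.05 in embryo 35 and 0.07 in embryo 40. Embryos 39 and 40, the ones higher on the right, each held a library of short fragments. It was the left one in embryo 39 (182.4 bases) and the right one in embryo 40 (191.9 bases). In embryo 35 fragment lengths were alike, at 211.2 bases right and 211.5 left. Whether fragment length bears on the direction was not tested.

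**Figure D3:**
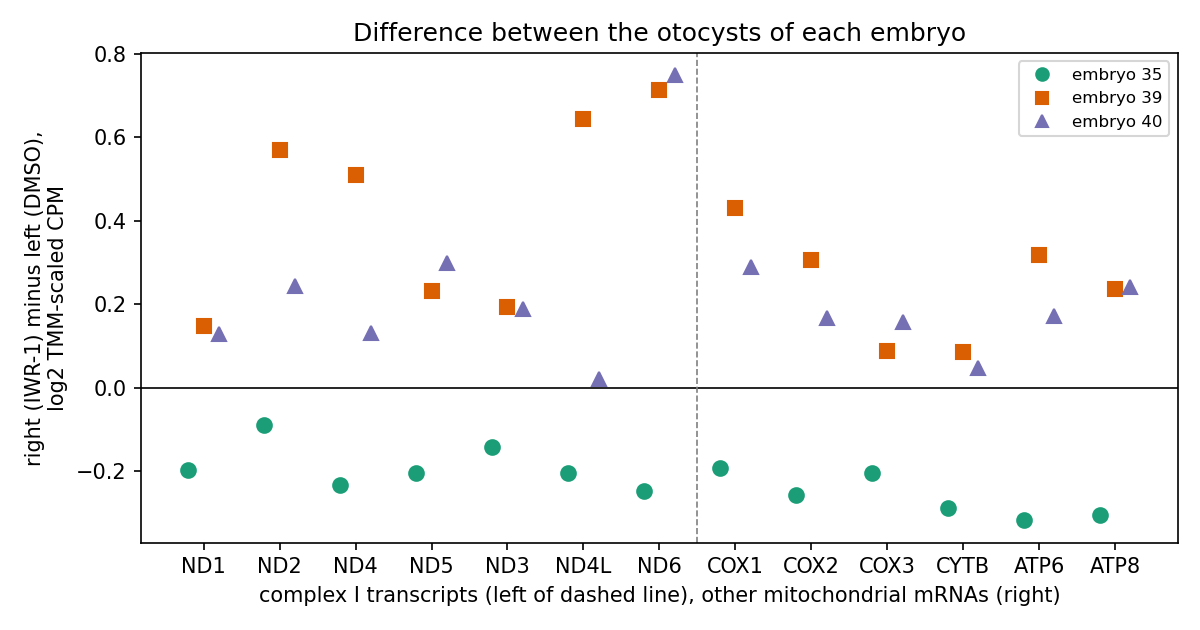
Right (IWR-1) minus left (DMSO) otocyst of the same embryo in log2 TMM-scaled CPM, for 7 complex I transcripts and the other 6 mitochondrial mRNAs. Embryo 35 lies below 0 and embryos 39 and 40 above 0 for each of the 13, with the highest points for ND6 (0.71 and 0.75).

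The size of the difference was uneven among the members. ND6 differed by 0.71 in embryo 39 and 0.75 in embryo 40. ND4L differed by 0.64 in embryo 39 but by 0.02 in embryo 40, although its gene overlaps that of ND4, for which the values were 0.51 and 0.13. ND1 and ND3 differed least in embryo 39, by 0.15 and 0.19. In embryo 40 they differed by 0.13 and 0.19, both more than ND4L. In embryos 39 and 40, ND2 differed by 0.57 and 0.24 and ND5 by 0.23 and 0.30.

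Summed over the 7 transcripts, the level was 4739, 4688 and 4732 CPM in the IWR-1 otocysts of embryos 35, 39 and 40, against 5352, 3589 and 4100 CPM in the DMSO otocysts. The mean was 4720 ± 27.7 CPM with IWR-1 and 4347 ± 907 CPM with DMSO (SD, n = 3 each). The IWR-1 sums thus lay close together, inside the DMSO range, and the difference in spread was not tested. Single members were less even, and partly offset each other in the sum. With IWR-1, ND2 measured 1335, 1123 and 1021 CPM in embryos 35, 39 and 40, and ND1 644.9, 656.8 and 696.2 CPM. Like ND1, each member other than ND2 was higher in embryo 40 than in embryo 35 with IWR-1. The log2 ratio of the mean sums was 0.12. It was -0.00204 without the DMSO otocyst of embryo 39, 0.30 without the DMSO otocyst of embryo 35 and 0.22 as a sum of TPM. The DMSO library of embryo 39 had the shortest fragments. With fragment length as a covariate, the log2 fold changes of single members ran from 0.02 (ND1) to 0.41 (ND6). That fit called 0 of 7, where 0.00605% of all transcripts passed, and 8.16% at an unadjusted p under 0.05. Its covariate was nearly balanced between the groups, as each held a library of short fragments, so it could move the group difference little.

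As a share of all estimated counts the 7 transcripts took 0.478%, 0.478% and 0.491% with IWR-1, against 0.539%, 0.329% and 0.412% with DMSO. The 95% Wilson intervals reached at most 0.00402 percentage points to either side and cover counting error only. Among the counts of the 13 mitochondrial mRNAs alone, complex I took 18.6%, 16.7% and 15.9% with IWR-1, against 17.9%, 15.2% and 15.6% with DMSO (Wilson intervals within 0.138 percentage points). The share was higher on the right (IWR-1) side in 3 of 3 embryos, by 0.664, 1.51 and 0.351 percentage points. The groups, with means of 17.1% ± 1.34 with IWR-1 and 16.2% ± 1.44 with DMSO (SD, n = 3 each), overlapped, and embryo 35 had the highest share on both sides. The difference within embryos was not tested.

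**Figure D4:**
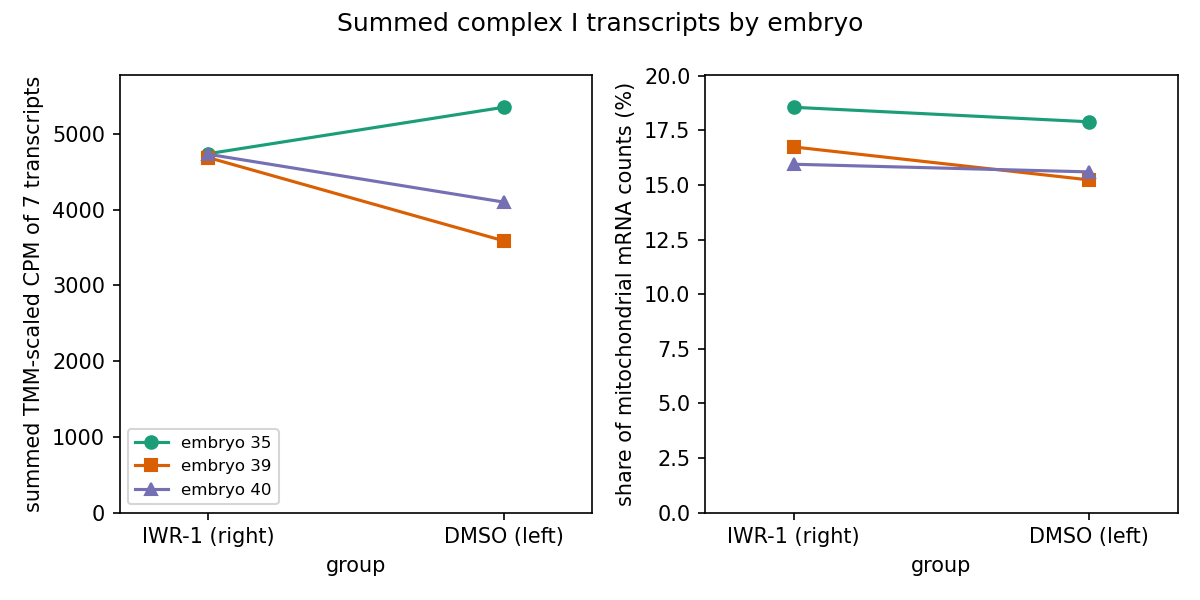
Summed TMM-scaled CPM of the 7 complex I transcripts (left panel) and their share of the counts on 13 mitochondrial mRNAs in percent (right panel), with a line joining the otocysts of each embryo and both axes starting at 0. The IWR-1 sums lie between 4688 and 4739 CPM and the DMSO sums between 3589 and 5352 CPM.

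Relative to the summed counts of the other 6 mitochondrial mRNAs, single members differed from each other. ND2 was higher on the right (IWR-1) side in 3 of 3 embryos, by 0.15, 0.35 and 0.08 on the log2 scale in embryos 35, 39 and 40. ND5 was also higher in 3 of 3, by 0.03, 0.01 and 0.13. ND6 stood at -0.01 in embryo 35 and was higher by 0.49 and 0.58 in embryos 39 and 40. ND3 (0.10, -0.03 and 0.02), ND4 (0.01, 0.29 and -0.04) and ND4L (0.04, 0.42 and -0.15) were higher in 2 of 3. ND1 was higher in 1 of 3, with 0.04, -0.08 and -0.04. These are differences within embryos given as a description, with no test. Several are no larger than counting error, among them ND5 in embryo 39 (0.01) and ND3 in embryo 40 (0.02), so their signs are not settled.

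Per length, the order of the mean levels over the 6 libraries was ND3 (2694 TPM), ND2 (1615), ND4 (1319), ND1 (1061), ND4L (1022), ND5 (724.0) and ND6 (351.7). The ranges over libraries overlapped between each pair of neighbours in this order except ND5 and ND6, which ran from 551.9 to 828.4 TPM and from 188.2 to 518.2 TPM. Within libraries the order was steadier. ND3 exceeded ND2, ND2 exceeded ND4, ND4 exceeded ND1, ND4L exceeded ND5 and ND5 exceeded ND6 in 6 of 6, while ND1 exceeded ND4L in 2 of 6. All 7 stood below the other 6 mitochondrial mRNAs in mean TPM, of which COX1 was the lowest at 4334 TPM and COX3 the highest of all targets at 15264 TPM. Among all 25752 targets ND3 ranked 25 and ND6 ranked 436. How evenly the library preparation captured these mRNAs was not examined. The order and ranks therefore describe sequenced fragments and may differ from the abundance in the tissue. TPM of short targets depend on the effective length assigned to them, so levels of ND3 and ND4L are less certain than those of the longer members. The same limit holds for ATP8, which at 165 bases was shorter than the mean fragment of every library.

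**Figure D5:**
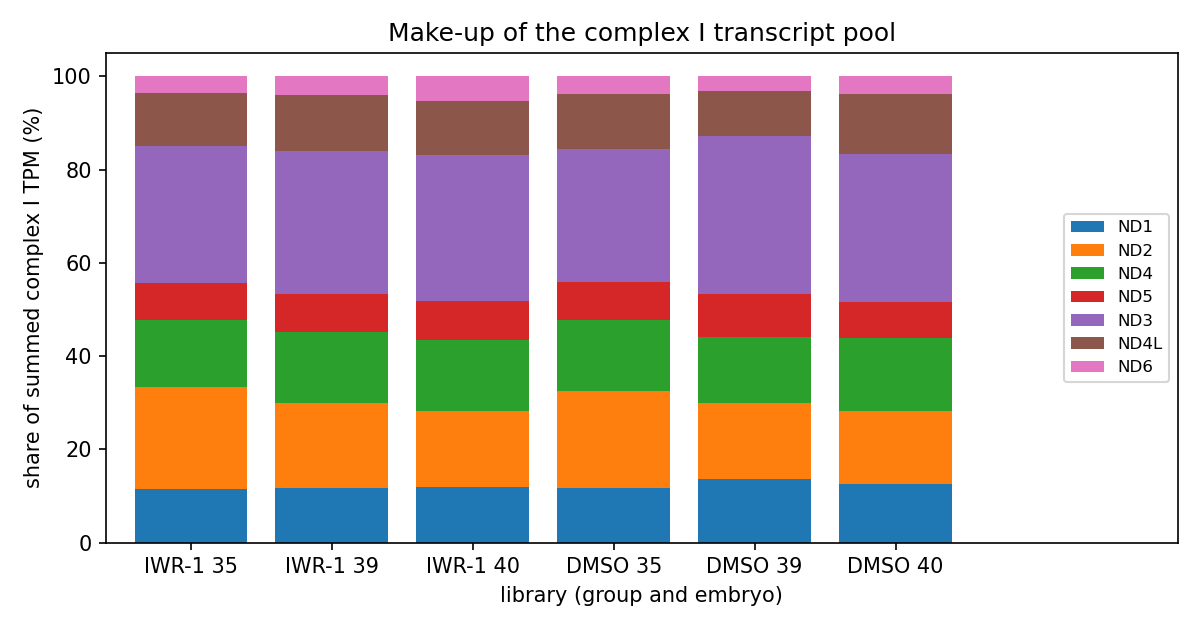
Share of each complex I transcript in the summed complex I TPM of a library, in percent, for 3 IWR-1 and 3 DMSO libraries. ND3 makes up 28.6% to 33.8%, ND2 is largest in the libraries of embryo 35, and ND6 reaches 5.36% in the IWR-1 library of embryo 40.

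Within the complex I pool, the share of ND4 in the summed TPM varied least, from 14.2% to 15.6%, a ratio of 1.10. By the ratio of its highest to its lowest share, 1.69, ND6 varied most, with 3.55%, 4.09% and 5.36% in the IWR-1 libraries of embryos 35, 39 and 40, against 3.76%, 3.16% and 3.73% in the DMSO libraries. In percentage points ND2 varied most. It took 21.8%, 18.3% and 16.3% with IWR-1, against 20.7%, 16.1% and 15.7% with DMSO, again with embryo 35 highest on both sides. ND4L took 11.4% to 12.0% with IWR-1, against 11.8%, 9.73% and 12.9% with DMSO. The low ND4L share belonged to the DMSO library of embryo 39, where the level of ND4L was 0.710 of that of ND1, against 0.952 to 1.03 in the other 5 libraries.

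The targets whose pattern over the 6 libraries was most like that of the complex I transcripts were found by Pearson's r between log2 CPM and the mean of the standardised members, among 16517 others and with no p. The closest 4 had r between 0.987 and 0.988, and none of them is a mitochondrial mRNA or has a name in the tables used. The most alike, ENSGALT00000067334.1, is sparse, at 1.79, 1.81 and 2.78 CPM with IWR-1 in embryos 35, 39 and 40, against 2.80, 0.502 and 1.09 CPM with DMSO. Of the other mitochondrial mRNAs, COX2 (r = 0.983) and COX1 (r = 0.979) ranked 9 and 10, whereas ATP6 (r = 0.871) ranked 461 and ATP8 (r = 0.708) ranked 2050. CYTB (r = 0.495) and COX3 (r = 0.453) ranked 4102 and 4488. The targets ranked 3 and 4 were also sparse, at 0.0718 to 1.56 CPM and 1.005 to 3.50 CPM, while the one ranked 2 had 17.9 to 39.0 CPM. Each r rests on 6 libraries from 3 embryos, and the low mean of the members in the DMSO library of embryo 39 enters each. Among 16517 targets ranked on so few libraries, r as high as these can arise by chance. None of the other 6 was called between the groups by edgeR or by DESeq2, with 0 of 6 at an unadjusted p under 0.05 in either, and their median log2 fold change was 0.06.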

How the data were processed

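The authors deposited 1 table per library with an estimated count per transcript target, which need not be whole and is not normalized, and a TPM value, per the file headers. The submitters' processing notes name bcl2fastq and kallisto. Versions, the transcript set and the genome build are not given in the sources used here. Libraries were made with SMART-Seq v4 and Nextera XT kits and sequenced as paired-end reads, per the labels' protocols.

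Samples were grouped by the treatment label, and the embryo numbers 35, 39 and 40 come from the titles, which carry the same number with R and L. Estimated counts were rounded. Targets were kept by filterByExpr with a minimum count of 10 and a minimum total of 15, and libraries were normalized with TMM factors. The quasi-likelihood test of edgeR 4.0.16 (R 4.3.3) was used, with Benjamini-Hochberg adjustment over all 16524 transcripts and a threshold of 0.05. No covariate was used, so this fit did not pair the otocysts of an embryo. Standard errors were derived from the F statistic, and 95% intervals from these and the degrees of freedom of the fit. The procedure was tested on simulated data. Alternatives used other scalings, filters and targets, DESeq2 1.42.0, limma 3.58.1 on log2(TPM + 1) and log2(TPM + 0.1), an embryo block and left-out libraries.

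Otocysts of the same number come from the same embryo, so the block pairs them. Deviations from the group means correlated at 0.157, 0.148 and 0.114 within the 3 embryos over all transcripts, and at -0.116 to -0.0511 between embryos. The deviations in a group of 3 sum to 0, so positive values within embryos force negative ones between them. The values between embryos are therefore not separate evidence for the pairing. The members and lists were chosen with earlier results of these data known. The rule for naming took all 7 members, the other 6 mitochondrial mRNAs and the 4 targets of most similar pattern. Of the 4, 1 identifier is printed. Names were matched for the 13 mitochondrial targets by order and length, as the gene table pairs 0 Ensembl identifiers with symbols.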

Additional observations from a re-analysis of the deposited data

How the results depend on the processing

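Over 22 alternative settings, 152 values for the 7 transcripts were computed. None passed the adjusted threshold, the lowest adjusted p being 0.246 (ND6, edgeR, whole-number targets with the replicate block). An unadjusted p under 0.05 was found for 2 values, both by edgeR. For ND2 it came without the DMSO library of embryo 35, where 10.2% of all transcripts tested passed. For ND6 it came among whole-number targets with the replicate block, where 14.5% passed. ND4 had no value among whole-number targets, because its estimates are not whole. With the replicate block alone 0 of 7 members and 1 transcript over all were called, as without it (ND2 0.24, ND6 0.41 on the log2 scale). The sign turned in 9 values, each with libraries left out. Over the fits without 1 library, log2 fold changes ran from -0.049 to 0.12 for ND1, 0.020 to 0.53 for ND2, 0.021 to 0.16 for ND3, -0.078 to 0.28 for ND4L, -0.047 to 0.29 for ND4, 0.028 to 0.25 for ND5 and 0.19 to 0.60 for ND6. The lowest values of ND1, ND2, ND3, ND4L and ND4 were those without the DMSO library of embryo 39. For the others these fits gave -0.057 to 0.20 for COX2, -0.041 to 0.16 for ATP6, -0.037 to 0.18 for ATP8, -0.064 to 0.11 for COX3, 0.056 to 0.33 for COX1 and -0.13 to 0.037 for CYTB. Without both short-fragment libraries, an alternative chosen after seeing the data, the values were -0.081 for ND1, 0.11 for ND2, -0.023 for ND3, 0.0034 for ND5, 0.022 for ND6, -0.085 for ND4L, -0.061 for ND4, -0.098 for COX2, -0.10 for ATP8, -0.10 for ATP6, -0.092 for COX3, 0.035 for COX1 and -0.19 for CYTB, and 0 transcripts were called over all. CYTB turned to 0.065 on log2(TPM + 1), to 0.065 with the pseudocount 0.1 and to 0.017 by library totals. The median of all transcripts shifted to 0.10 and 0.12 on these TPM scales. The count over all transcripts was 4 when each sample had to reach 10 counts, 2 on log2(TPM + 1), 195 with DESeq2 and 261 with its replicate block, 7 for whole-number targets and 191 with the block, and 0 to 1 without a single library (0 without any of the 3 IWR-1 libraries). The cause was not tested.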

Other observations

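The spread of complex I transcripts within groups was compared with that of the 2672 transcripts at least as abundant as ND6, the rarest member on the CPM scale. The standard deviation of log2 CPM within groups had a median of 0.195 over these transcripts. It was 0.108 for ND3, 0.122 for ND1 and 0.164 for ND5, below that median, and 0.237 for ND4, 0.284 for ND4L, 0.352 for ND6 and 0.367 for ND2, above it. Of the 2672, 92.5% varied less than ND2 and 91.0% less than ND6, while 14.1% varied less than ND3. Among the same transcripts 34.8% had a log2 fold change above 0, with a median of -0.09, against 7 of 7 complex I transcripts with a median of 0.11. The sign was not particular to complex I, as 5 of the other 6 mitochondrial mRNAs were above 0, with a median of 0.06. The count of 7 for complex I depends on single libraries. Without the DMSO library of embryo 39, 4 of 7 were above 0. Without the IWR-1 or the DMSO library of embryo 40, 6 of 7 were.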
